A study of Mus musculus with 4 samples.

Results

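Genes that brake or gate the entry into the cell cycle were followed in mouse blood stem and progenitor cells: the 7 cyclin-dependent kinase (CDK) inhibitors Cdkn1a, Cdkn1b, Cdkn1c, Cdkn2a, Cdkn2b, Cdkn2c and Cdkn2d, and the 3 pocket proteins Rb1, Rbl1 and Rbl2. These 10 genes were chosen by symbol, and every non-control probe carrying one of these symbols was used. They had 16 of the 55681 probes of the array and made up 10 of the 28285 genes with a measurable probe. All 10 had a probe well above background on at least 1 array, and 7 had one on all 4 arrays.

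Expression was measured with 1-colour Agilent microarrays in CFSE-positive cells. These were sorted from the marrow of irradiated mice (9.5 Gy), 16 h after the mice had received CFSE-stained donor cells. The 4 groups, with 1 array each, were cKO LT-HSC, WT LT-HSC, cKO MPP and WT MPP. Donors were 10-week-old male C57BL/6J mice, either p38 cKO, a conditional knockout of a p38 kinase that the study's title gives as p38 alpha, or wild type (WT). LT-HSC are long-term haematopoietic stem cells, sorted before the transplant as CD34- Flt3- LSK cells, and MPP are the CD34+ Flt3+ LSK cells, where LSK stands for lineage-negative, Sca-1-positive and Kit-positive. Cells of all 4 groups had been stained with CFSE, a dye that marks the donor cells, and had been through the transplant, so no group holds untouched marrow cells. The labels name neither the Cre driver of the deletion nor the number of mice behind an array.

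CDK inhibitors bind the kinases that push a cell from G1 into S phase. The CIP/KIP proteins p21 (Cdkn1a), p27 (Cdkn1b) and p57 (Cdkn1c) bind many cyclin-CDK complexes, whereas the INK4 proteins p16 (Cdkn2a), p15 (Cdkn2b), p18 (Cdkn2c) and p19 (Cdkn2d) bind Cdk4 and Cdk6. The pocket proteins pRB (Rb1), p107 (Rbl1) and p130 (Rbl2) hold E2F transcription factors at their target genes until CDKs phosphorylate them. Blood stem cells are mostly out of cycle in the steady state, and p57 and p18 are each known to restrain their division in mice.

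Cdkn1b, Cdkn2d and Rb1 were 1.57-fold to 2.12-fold higher on the LT-HSC array than on the MPP array of both genotypes, at the brightest probe of each gene, which stands for the gene in all counts. Between cKO and WT in LT-HSC, 2 of the 3 probes of Cdkn1a were 2.63-fold and 3.15-fold higher in cKO while the brightest was 1.17-fold higher, Rbl1 was 1.78-fold lower at its brighter probe, and Cdkn2b was at least 2.30-fold higher at 1 of its probes. In MPP, the cKO minus WT differences of the 7 members measured on both arrays lay between -0.25 and 0.39 on the log2 scale at their brightest probes. In LT-HSC, the probes of Rbl1 ran in opposite directions between cKO and WT, and so did those of Cdkn2b. The fold limit at the other Cdkn2b probe lay within the scanner software's error.

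Signals below are processed signals in linear units, as deposited and not scaled between arrays. Differences are on the log2 scale after each array's 75th percentile was subtracted (202 on cKO LT-HSC, 214 on WT LT-HSC, 175 on cKO MPP and 179 on WT MPP). The value after ± is the error of a difference from the error model of the scanner software and covers neither cells nor RNA handling. With 1 array per group, no pairwise difference has a replicate check, so genes are described as higher or lower on 1 array than on another, with no p-value for a pair. Signals of different probes are not comparable as levels. In RNA from a sorted population, fewer cells of a type and less RNA per cell cannot be told apart.

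**Figure D1:**
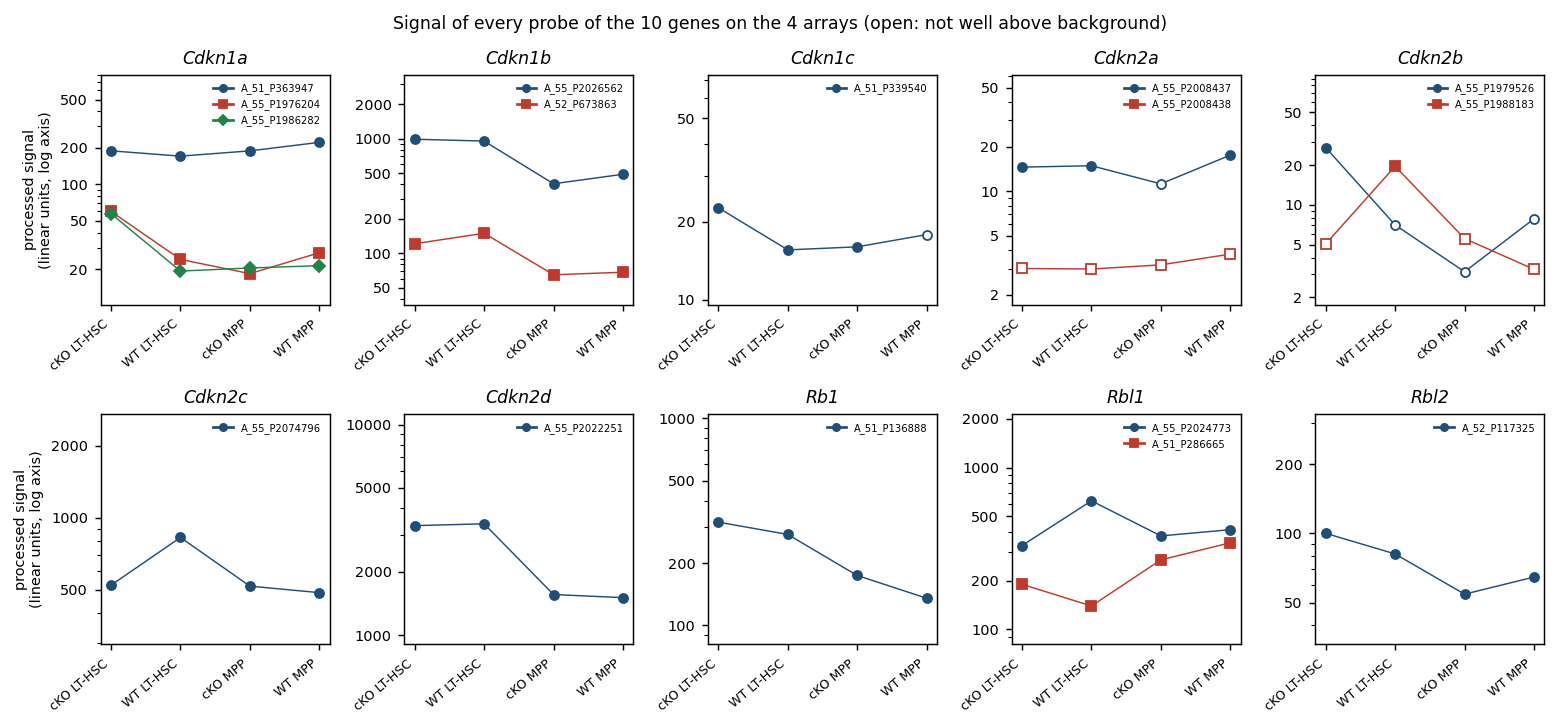
Processed signal (linear units, log axis) of all 16 probes of the 10 genes on the cKO LT-HSC, WT LT-HSC, cKO MPP and WT MPP arrays, 1 point per array. Open points were not well above background. Cdkn1b, Cdkn2d and Rb1 are high on both LT-HSC arrays, and the pairs of probes of Rbl1 and of Cdkn2b cross or diverge.

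Cdkn1b encodes p27, which holds cyclin E-Cdk2 inactive in resting cells. Its brighter probe (A_55_P2026562, chr6:134875424-134875483 of mm9, + strand) had a signal of 988.5 on cKO LT-HSC, 952.2 on WT LT-HSC, 404.0 on cKO MPP and 489.2 on WT MPP. Both LT-HSC arrays were well above both MPP arrays. On the log2 scale LT-HSC minus MPP was 1.08 ± 0.20 in cKO, or 2.12-fold, and 0.70 ± 0.20 in WT, or 1.62-fold. The other probe (A_52_P673863, 1818 bases away) had 121.2 on cKO LT-HSC, 149.6 on WT LT-HSC, 65.0 on cKO MPP and 68.4 on WT MPP. It gave the same direction, with differences of 0.69 ± 0.22 in cKO and 0.87 ± 0.22 in WT. Between genotypes the probes differed little: cKO minus WT was 0.14 at the brighter probe and -0.22 at the other in LT-HSC, and -0.25 and -0.05 at the same probes in MPP.

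Cdkn2d, the INK4 gene for p19, gave nearly the same difference between populations in both genotypes. Its probe (A_55_P2022251, chr9:21092934-21092993 of mm9, - strand) had a signal of 3310 on cKO LT-HSC, 3376 on WT LT-HSC, 1557 on cKO MPP and 1505 on WT MPP. The arrays split by population, and the genotypes lay side by side within each. Scaled, LT-HSC minus MPP was 0.88 ± 0.20 in cKO and 0.90 ± 0.20 in WT, whereas cKO minus WT was 0.05 ± 0.20 in LT-HSC and 0.08 ± 0.20 in MPP.

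Cdkn1b and Cdkn2d are shown here with the 250 bases before the start of their transcripts, because they were higher on LT-HSC in both genotypes, together with the 2 promoters of Cdkn1a, whose probes disagreed. The sequences are from RefSeq, build GRCm38.p6, written along the gene's own strand. They lie at chr6:134920151-134920400 (+ strand) for Cdkn1b, chr9:21291210-21291459 (- strand) for Cdkn2d, and chr17:29090729-29090978 and chr17:29093519-29093768 (both + strand) for Cdkn1a. Capitals mark matches, on either strand, to the CCAAT box, the FoxO core TGTTTA, the E2F sites TTCCCGC and TTTGGCGC, and the Sp1 site GGGGCGGGG.
Cdkn1b promoter: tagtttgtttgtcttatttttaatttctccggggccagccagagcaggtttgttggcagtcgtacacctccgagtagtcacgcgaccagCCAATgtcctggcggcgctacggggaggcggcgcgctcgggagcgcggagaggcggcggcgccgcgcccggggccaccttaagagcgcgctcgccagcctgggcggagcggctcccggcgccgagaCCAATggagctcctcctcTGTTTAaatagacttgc
Cdkn2d promoter: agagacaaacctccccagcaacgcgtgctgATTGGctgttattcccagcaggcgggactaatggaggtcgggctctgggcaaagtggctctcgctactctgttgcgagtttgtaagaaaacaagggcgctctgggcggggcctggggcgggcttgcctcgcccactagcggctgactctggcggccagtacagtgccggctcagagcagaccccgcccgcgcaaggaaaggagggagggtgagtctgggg
Cdkn1a promoter 1: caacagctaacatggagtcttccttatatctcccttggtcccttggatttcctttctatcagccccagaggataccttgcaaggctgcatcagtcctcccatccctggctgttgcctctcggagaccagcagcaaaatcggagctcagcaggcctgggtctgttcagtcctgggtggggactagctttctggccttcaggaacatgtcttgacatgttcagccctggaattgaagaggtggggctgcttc
Cdkn1a promoter 2: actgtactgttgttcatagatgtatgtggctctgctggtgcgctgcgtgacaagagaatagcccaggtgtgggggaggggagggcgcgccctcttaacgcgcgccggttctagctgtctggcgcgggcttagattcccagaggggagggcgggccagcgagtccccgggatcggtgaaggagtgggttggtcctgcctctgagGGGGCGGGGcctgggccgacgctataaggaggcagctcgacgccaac

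Of the 10 genes, 8 had a promoter in that table, all but Cdkn1c and Rb1. CCAAT was in the promoters of Cdkn1b and Cdkn2d, and in 33.8% of all 32851 promoters of this length. In Cdkn1b it stood at 161 to 157 and at 35 to 31 bases before the start, and in Cdkn2d it lay on the opposite strand, 220 to 216 bases before the start. TGTTTA was in the Cdkn1b window at 17 to 12 bases before the start, and in 12% of all promoters. TTCCCGC was in those of Cdkn2a and Cdkn2c and in 3.82% of all, and TTTGGCGC was in those of 0 members and in 0.417% of all. GGGGCGGGG was in the second Cdkn1a promoter and in 10.4% of all, TTTGAA (the CHR element) was in those of Cdkn2b and Rbl2 and in 16% of all, and the E-box CACGTG and the AP-1 site TGACTCA were in those of 0 members and in 6.02% and 4.46% of all. Each motif was searched on both strands, and a match is a match of letters, not a site shown to be bound.

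Rb1 encodes the retinoblastoma protein pRB, the founding pocket protein. Its probe (A_51_P136888, chr14:73595408-73595467 of mm9, - strand) was printed 10 times per array and had a mean signal of 315.1 on cKO LT-HSC, 274.8 on WT LT-HSC, 174.0 on cKO MPP and 135.1 on WT MPP. The order was cKO LT-HSC, WT LT-HSC, cKO MPP and WT MPP. The LT-HSC minus MPP difference was 0.65 ± 0.21 in cKO and 0.76 ± 0.21 in WT. The cKO minus WT difference was 0.28 ± 0.21 in LT-HSC and 0.39 ± 0.21 in MPP, both larger than that error.

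The repeated spots of this probe show the printing and scanning spread. Their lowest, median and highest signals were 289, 318 and 342 on cKO LT-HSC, and 255, 271 and 294 on WT LT-HSC. They were 157, 175 and 194 on cKO MPP, where 9 spots were kept, and 126, 132 and 147 on WT MPP. These signals are not scaled between arrays. The spots of the LT-HSC arrays did not overlap those of the MPP arrays, and those of cKO MPP did not overlap those of WT MPP. The lowest unscaled spots of cKO LT-HSC overlapped the highest of WT LT-HSC. Scaling to the 75th percentiles, 202 on cKO LT-HSC and 214 on WT LT-HSC, shifts cKO LT-HSC up, and that overlap holds for unscaled signals only. The brightest Cdkn1a probe was also printed 10 times, with 174, 185 and 211 on cKO LT-HSC, 159, 165 and 194 on WT LT-HSC, 172, 193 and 212 on cKO MPP and 208, 222 and 237 on WT MPP. Its spots overlapped between every pair of neighbouring arrays in this order of level.

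**Figure D2:**
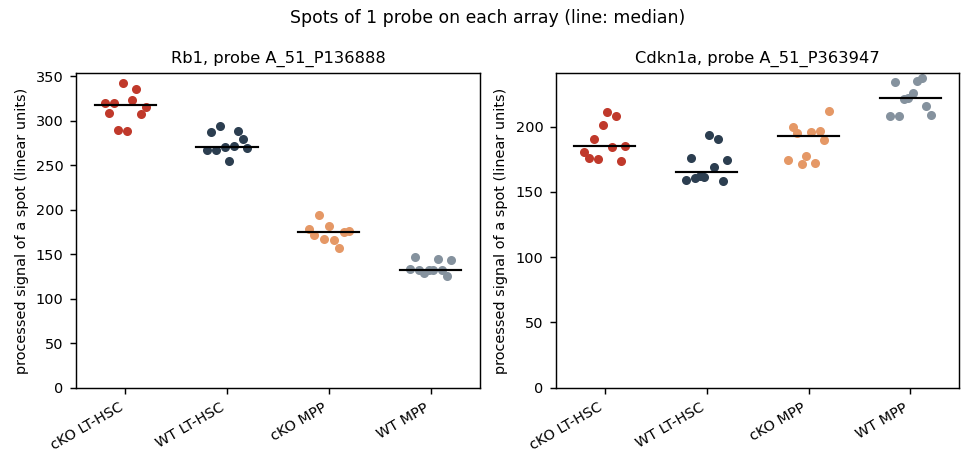
Processed signal (linear units) of each spot of 1 Rb1 probe and 1 Cdkn1a probe on the cKO LT-HSC, WT LT-HSC, cKO MPP and WT MPP arrays, with the median as a line. Rb1 spots lie at 255 or above on the LT-HSC arrays and at 194 or below on the MPP arrays. Cdkn1a spots of WT LT-HSC (194 or below) lie under those of WT MPP (208 or above). The cKO arrays overlap both in these signals, which are not scaled between arrays.

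At a threshold of 2-fold, 1 of 10 members (Cdkn1b) was higher on LT-HSC than on MPP in cKO, where 7.91% of all 27030 genes were, and 0 of 10 were lower, where 6.69% of genes were. In WT, 0 of 9 were higher, against 10.2% of 26654 genes, and 0 of 9 were lower, against 18.1%. At 1.5-fold, a threshold added after the values were seen, 5 of 10 members were higher on LT-HSC in cKO (15.3% of genes) and 3 of 9 in WT (17.3% of genes). The 5 in cKO were Cdkn1b, Cdkn2d, Rb1, Rbl2 and Cdkn2b, the last only through a bound of 0.88 with a larger error of 1.46. At the same threshold 0 of 10 were lower in cKO (19.2% of genes) and 1 of 9, Cdkn1a, was lower in WT (31.6% of genes). Cdkn1b, Cdkn2d and Rb1 were past it in both genotypes, 3 of 9 members against 7.25% of 25399 genes, and 0 of 9 were lower in both, against 12.1% of genes.

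Over the members measured on both arrays, the median LT-HSC minus MPP difference was 0.47 in cKO (8 members) and 0.42 in WT (8 members). The medians over all genes measured on both arrays were -0.09 in cKO, with an interquartile range of 0.76, and -0.20 in WT, with an interquartile range of 1.10. With Cdkn2b, measured on 1 array of the pair only, entered at its bound of 0.88, the members' median in cKO was 0.65 (9 members). Bounds of 0, those of Cdkn2a in cKO and Cdkn1c in WT, were left out, and with them the medians would be lower. The WT median thus stayed at 0.42 (8 members). Of the 7 members well above background on all 4 arrays, 5 had the same sign in both genotypes, against 69.6% of 21520 genes. Cdkn1b, Cdkn2d, Rb1 and Rbl2 were higher on LT-HSC in both, and Cdkn1a was lower in both at its brightest probe.

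An additive fit of population and genotype over the 4 arrays, added after the values were seen, gave the difference shared by both genotypes and left 1 residual degree of freedom. The LT-HSC minus MPP difference was 0.89 for Cdkn1b (limma, SE 0.29, adjusted p = 0.308), 0.89 for Cdkn2d (SE 0.27, adjusted p = 0.298) and 0.71 for Rb1 (SE 0.27, adjusted p = 0.333). The share of genes past an adjusted p of 0.05 was 0% for either effect, 0 of 25835 genes, although 4103 genes had an unadjusted p under 0.05 for population and 934 for genotype. In limma's fit, 0 of the 9 members tested passed for population, with adjusted p of 0.298 to 0.966, and 0 of 9 for genotype, with adjusted p of 0.974 to 0.998. Cdkn2b was below background on too many arrays to be fitted.

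**Figure D3:**
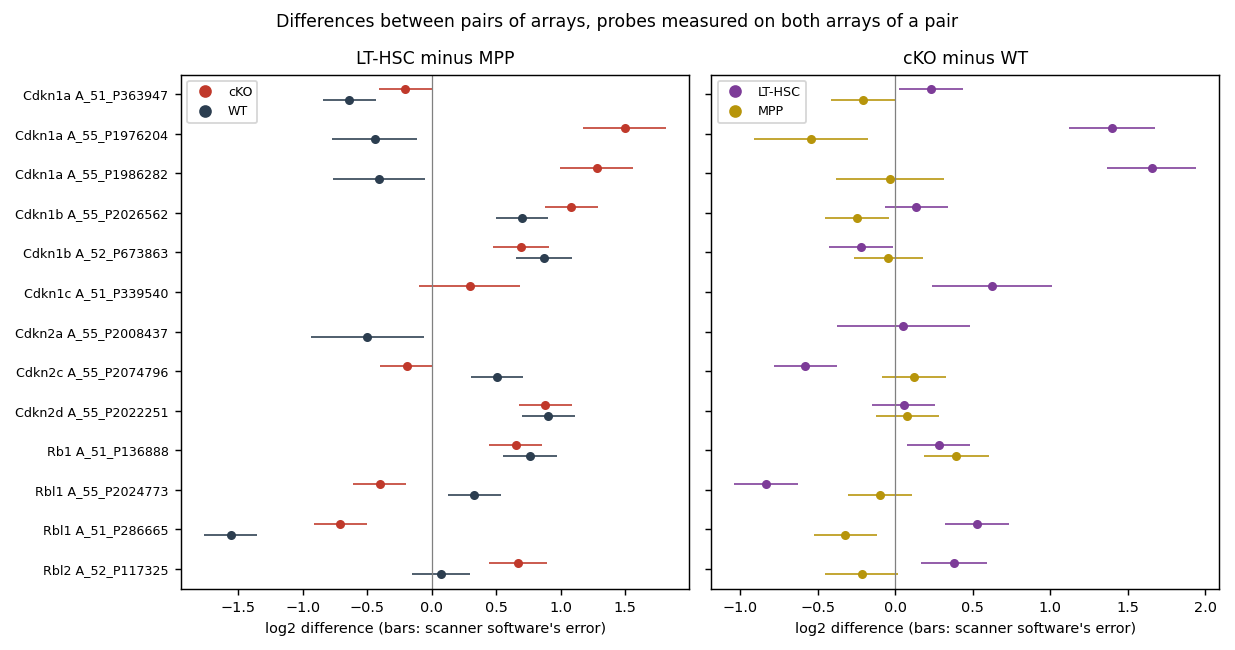
Log2 differences between pairs of arrays for each probe measured on both arrays of a pair, with the scanner software's error as bars. The left panel gives LT-HSC minus MPP in cKO and in WT, where Cdkn1b, Cdkn2d and Rb1 lie above 0 in both genotypes. The right panel gives cKO minus WT in LT-HSC and in MPP, where 2 of 3 Cdkn1a probes lie above 1 in LT-HSC.

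The cKO and WT arrays were set side by side within each population. In LT-HSC, 1 of 10 members was higher by 2-fold or more in cKO, against 10.7% of 27618 genes, and that one was Cdkn2b at a bound. In the same pair 0 of 10 were lower, against 8.25% of genes. In MPP, 0 of 9 were higher, against 2.41% of 25317 genes, and 0 of 9 were lower, against 2.61%. In both populations at 1.5-fold, 0 members were higher and 0 were lower, against 2.45% and 2.05% of 24650 genes. The median cKO minus WT difference over members measured on both arrays was 0.14 in LT-HSC (9 members) and -0.10 in MPP (7 members), and over all genes it was 0.10 in LT-HSC and -0.06 in MPP. The sign was the same in both populations for 3 of 7 members (Cdkn2d, Rb1 and Rbl1) and for 50% of 21520 genes, so the members did not stand out in this.

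Cdkn1a encodes p21, a target of p53 that is induced by DNA damage. Its 3 probes lie at different places along the gene on mouse chromosome 17, and their opening 30 bases are shown because they decide what was measured.
A_51_P363947: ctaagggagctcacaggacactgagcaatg
A_55_P1976204: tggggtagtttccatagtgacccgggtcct
A_55_P1986282: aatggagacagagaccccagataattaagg
The brightest probe (A_51_P363947, chr17:29237377-29237436 of mm9, + strand) is annotated with both RefSeq transcripts of the gene, NM_007669 and NM_001111099. The second (A_55_P1976204, chr17:29235299-29235358) is named for the Ensembl transcript ENSMUST00000122348 alone. The third (A_55_P1986282, chr17:29227986-29228045), which lies 9391 bases upstream of the brightest, is named for NM_001111099, transcript variant 2.

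At the brightest probe, Cdkn1a had a signal of 188.7 on cKO LT-HSC, 170.6 on WT LT-HSC, 188.5 on cKO MPP and 221.6 on WT MPP. WT LT-HSC was the lowest and WT MPP the highest, with an LT-HSC minus MPP difference of -0.21 ± 0.21 in cKO and -0.64 ± 0.21 in WT, or 1.56-fold lower on LT-HSC in WT. The cKO minus WT difference was 0.23 ± 0.21 for LT-HSC and -0.21 ± 0.21 for MPP. At the probe named for the Ensembl transcript, the signal was 59.7 on cKO LT-HSC, 24.0 on WT LT-HSC, 18.3 on cKO MPP and 27.3 on WT MPP. At the variant 2 probe it was 57.2 on cKO LT-HSC, 19.2 on WT LT-HSC, 20.4 on cKO MPP and 21.3 on WT MPP. At these 2 probes cKO LT-HSC stood alone, and the other 3 arrays lay together near the dim end.

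The cKO minus WT difference in LT-HSC was 1.40 ± 0.28 at the Ensembl probe, or 2.63-fold, and 1.65 ± 0.29 at the variant 2 probe, or 3.15-fold. In MPP it was -0.54 ± 0.37 and -0.04 ± 0.35 at the same probes. Between populations, LT-HSC minus MPP was 1.50 ± 0.32 and 1.28 ± 0.28 in cKO, and -0.44 ± 0.33 and -0.41 ± 0.35 in WT. With the mean of the 3 probes in place of the brightest, Cdkn1a was 1.09 higher on cKO LT-HSC than on WT LT-HSC, so the call for this gene depends on the probe. The share of transcript variant 2 among Cdkn1a transcripts cannot be read from signals of different probes.

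Cdkn1c encodes p57, the CIP/KIP inhibitor most tied to stem cell quiescence in mouse marrow, and was dim here. Its probe (A_51_P339540, chr7:150644753-150644812 of mm9, - strand) had a signal of 22.6 on cKO LT-HSC, 15.6 on WT LT-HSC and 16 on cKO MPP, and 17.8 on WT MPP, where it was not well above background. The cKO minus WT difference in LT-HSC was 0.62 ± 0.39 and the LT-HSC minus MPP difference in cKO was 0.29 ± 0.39. With normexp background correction and quantile normalization they were 0.11 and 0.04. On each array the lowest signal flagged as well above background was 12.5 to 15.4, so these values lie near the limit of detection.

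The INK4 genes Cdkn2a and Cdkn2b were also near that limit. Cdkn2a, which makes p16 and, from another reading frame, p19Arf, had 14.5 on cKO LT-HSC, 14.8 on WT LT-HSC, 11.2 on cKO MPP (not well above background) and 17.5 on WT MPP at A_55_P2008437 (chr4:88920405-88920464 of mm9, - strand). Its other probe had 3.01 on cKO LT-HSC, 2.98 on WT LT-HSC, 3.18 on cKO MPP and 3.76 on WT MPP, below background on all 4. Both probes are annotated with the transcripts NM_009877 and NM_001040654, so they do not separate the products. In LT-HSC the cKO minus WT difference was 0.05 ± 0.43. LT-HSC minus MPP in WT was -0.50 ± 0.44, and -0.02 with normexp and quantile normalization. In MPP the bound of Cdkn2a was 1.35-fold lower on the cKO array, or -0.43 on the log2 scale, smaller than its error of 0.51.

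Cdkn2b, the gene for p15, was well above background on 1 array at each of its probes, and not on the same one. Probe A_55_P1979526 (chr4:88952720-88952779 of mm9, - strand) had 27.1 on cKO LT-HSC, 7.06 on WT LT-HSC, 3.13 on cKO MPP and 7.85 on WT MPP, and only the first was well above background. That made it at least 2.30-fold higher on cKO LT-HSC than on WT LT-HSC, and at least 1.84-fold higher on cKO LT-HSC than on cKO MPP. Probe A_55_P1988183, 444 bases away, had 5.08 on cKO LT-HSC, 19.6 on WT LT-HSC, 5.57 on cKO MPP and 3.26 on WT MPP, with only WT LT-HSC well above background. Its bound was 1.47-fold lower on cKO LT-HSC than on WT LT-HSC, or -0.55 on the log2 scale with an error of 0.81. The probes of Cdkn2b thus give opposite directions, but the bounds of 0.88 and -0.55 are smaller than their errors.

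Cdkn2c encodes p18, whose loss is known to raise the self-renewal of mouse stem cells. Its probe (A_55_P2074796, chr4:109333508-109333567 of mm9, - strand) had 523.2 on cKO LT-HSC, 828.2 on WT LT-HSC, 518.6 on cKO MPP and 487.0 on WT MPP. WT LT-HSC was the high array, and the other 3 lay within a narrow range. Here the cKO minus WT difference was -0.58 ± 0.20 in LT-HSC and 0.12 ± 0.20 in MPP. Its LT-HSC minus MPP difference was -0.19 ± 0.20 in cKO and 0.51 ± 0.20 in WT.

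Among the other pocket proteins, Rbl1 (p107), which is itself an E2F target in cycling cells, had 2 probes for different transcript variants, 28618 bases apart on chromosome 2. Their opening 30 bases are given because the probes ran in opposite directions between genotypes in LT-HSC and between populations in WT.
Rbl1 variant 1 probe: acactggaggtttagccttctgaagaatca
Rbl1 variant 2 probe: ccgagaggaattggaggaggggaaaacttg
The variant 2 probe (A_55_P2024773, chr2:157000761-157000820 of mm9, - strand, NM_001139516) had 330.1 on cKO LT-HSC, 623.5 on WT LT-HSC, 378.5 on cKO MPP and 413.6 on WT MPP. The variant 1 probe (A_51_P286665, chr2:156972143-156972202, NM_011249) had 190.2 on cKO LT-HSC, 139.7 on WT LT-HSC, 269.3 on cKO MPP and 343.4 on WT MPP. WT LT-HSC was thus the highest array at the variant 2 probe and the lowest at the variant 1 probe.

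In LT-HSC, cKO minus WT was -0.84 ± 0.20 at the variant 2 probe, or 1.78-fold lower in cKO, and 0.53 ± 0.21 at the variant 1 probe. In MPP the same difference was -0.10 ± 0.20 and -0.32 ± 0.21. The LT-HSC minus MPP difference at the variant 1 probe was -0.71 ± 0.21 in cKO and -1.56 ± 0.21 in WT, or 2.95-fold lower on LT-HSC in WT. At the variant 2 probe it was -0.40 ± 0.20 in cKO and 0.33 ± 0.20 in WT. With the mean of both probes, the WT difference turned to -0.61, so the direction of Rbl1 between populations in WT depends on the probe. Whether the probes or the transcript variants differ was not tested.

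Rbl2 encodes p130, the pocket protein that prevails in resting cells. Its probe (A_52_P117325, chr8:93647120-93647179 of mm9, + strand) had 100.1 on cKO LT-HSC, 81.5 on WT LT-HSC, 54.5 on cKO MPP and 64.7 on WT MPP. The LT-HSC arrays were above the MPP arrays in signal, but the scaled LT-HSC minus MPP difference was 0.67 ± 0.22 in cKO and 0.07 ± 0.23 in WT. The cKO minus WT difference was 0.38 ± 0.22 in LT-HSC and -0.22 ± 0.24 in MPP. With normexp background correction and quantile normalization, the population difference in cKO was 0.31 and the genotype difference in LT-HSC 0.15.

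The genes that the inhibitors and pocket proteins act on ran the other way between the populations. Their medians are read beside those of all genes, -0.09 in cKO and -0.20 in WT, and their 2-fold counts beside the share of all genes lower on LT-HSC, 6.69% in cKO and 18.1% in WT, and higher, 7.91% in cKO and 10.2% in WT. Of 9 measured G1 cyclins and kinases, 3 were at least 2-fold lower on LT-HSC than on MPP in cKO and 0 higher (median -0.95), and 5 were lower and 0 higher in WT (median -1.05). Cdk4, the main partner of D cyclins and a target of INK4 proteins, had 4277 on cKO LT-HSC, 4923 on WT LT-HSC, 8550 on cKO MPP and 10061 on WT MPP. Both MPP arrays were the high ones. LT-HSC minus MPP was -1.71 in cKO and -1.48 in WT for Cdk1, the mitotic kinase, -1.42 in cKO for Cdk2, and, in WT, -1.52 for Cdk6 and -2.25 for cyclin A2 (Ccna2).

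Of 10 E2F and DP factors, 0 were higher and 2 lower on LT-HSC in cKO, and 0 were higher and 6 lower in WT, with medians of -0.31 in cKO and -1.13 in WT. In WT the difference was -2.50 for E2f3 and -1.56 for E2f1, both activators of S-phase genes, and in cKO it was -1.05 for Tfdp1, the common partner of E2F factors. Of 14 replication genes known as E2F targets, 1 was higher and 2 were lower on LT-HSC in cKO (median -0.53), and 0 were higher and 9 lower in WT (median -1.17). In WT the difference was -2.25 for Tyms (thymidylate synthase), -1.75 for Rrm1, a subunit of ribonucleotide reductase, and -1.48 for the maintenance DNA methyltransferase Dnmt1, and in cKO it was -1.11 for Dnmt1 and -1.06 for Rrm2, the other subunit. Pocket proteins join the MuvB complex to silence cell-cycle genes. Of 8 members of this complex and its partners, 0 were higher and 2 lower in cKO (median -0.53), and 0 were higher and 4 lower in WT (median -0.75). The 4 include Foxm1 (-3.06), which with MuvB drives mitotic genes rather than silencing them, and Mybl2 (-2.30).

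Between genotypes in LT-HSC, 8 of the 41 genes measured in the same lists were 2-fold higher in cKO, against 10.7% of all genes, and 1 was lower, against 8.25%, and the median of all genes was 0.10. The counts of higher and lower genes in cKO LT-HSC were 1 and 0 of the G1 cyclins and kinases (median -0.12), 2 and 0 of the E2F and DP factors (median 0.46), 3 and 1 of the MuvB group (median 0.13) and 2 and 0 of the E2F target replication genes (median 0.38). Foxm1, which drives mitotic genes together with MuvB, had 334.6 on cKO LT-HSC, 48.0 on WT LT-HSC, 402.4 on cKO MPP and 335.2 on WT MPP, and E2f3 had 1026 on cKO LT-HSC, 210.0 on WT LT-HSC, 771.3 on cKO MPP and 990.8 on WT MPP. WT LT-HSC was the low array for both. Tyms was 2.53 higher and Ccna2 1.14 higher on the log2 scale on cKO LT-HSC than on WT LT-HSC. In MPP, 1 of the 41 genes, E2f2, was 2-fold higher in cKO, against 2.41% of all genes, and 0 were lower, against 2.61%.

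Of 15 known regulators of the CDK inhibitors, 2 were at least 2-fold lower and 1 higher on LT-HSC than on MPP in cKO (median -0.32), and 6 were lower and 2 higher in WT (median -0.42). The shares of all genes were 6.69% lower and 7.91% higher in cKO, and 18.1% lower and 10.2% higher in WT. Foxo1, a FoxO factor that activates Cdkn1b, had 1007 on cKO LT-HSC, 1671 on WT LT-HSC, 202.5 on cKO MPP and 128.9 on WT MPP. It was high on both LT-HSC arrays, by 2.11 in cKO and 3.44 in WT. Skp2, the ubiquitin ligase subunit that marks p27 for destruction, had 208.6 on cKO LT-HSC, 108.5 on WT LT-HSC, 480.7 on cKO MPP and 431.4 on WT MPP. Both MPP arrays were high for it. The LT-HSC minus MPP difference in WT was -2.18 for its cofactor Cks1b, and it was -1.65 in cKO and -1.54 in WT for Myc. In LT-HSC, cKO minus WT was 1.03 for Skp2, 1.41 for Cks1b and -1.19 for Zbtb17 (Miz-1, a factor that activates Cdkn2b and Cdkn1a). In MPP, 0 of 15 regulators were past 2-fold, against 2.41% of all genes higher and 2.61% lower in cKO.

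**Figure D4:**
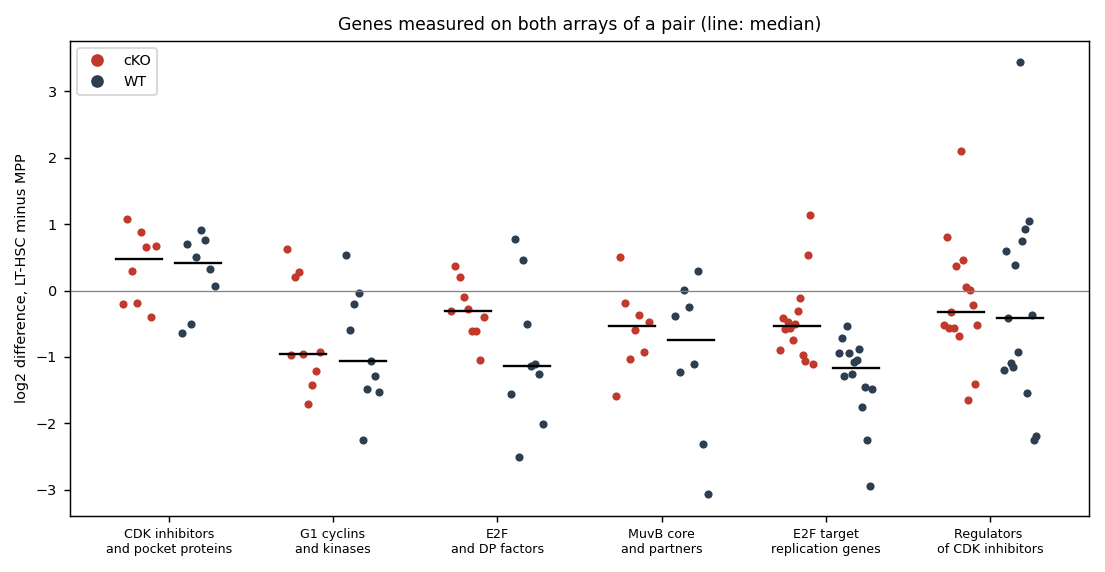
LT-HSC minus MPP difference (log2) of each gene measured on both arrays, in cKO and in WT, for the CDK inhibitors and pocket proteins and for 5 lists of genes they act with, with the median of each as a line. The members' medians are 0.47 in cKO and 0.42 in WT, and the medians of the other lists lie between -1.17 and -0.31.

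The labels were checked against markers of each population. LT-HSC minus MPP was -1.16 in cKO and -1.81 in WT for Flt3, and -1.02 in cKO and -2.99 in WT for Cd34. The 10 LT-HSC markers did not separate the populations as a list: among the 8 measured on both arrays, the median LT-HSC minus MPP difference was 0.16 in cKO and 0.01 in WT. Ly6a, which encodes Sca-1, was 2.11 in cKO and 1.96 in WT, but Procr was 0.26 in cKO and -1.18 in WT, Mecom was -1.75 in cKO and 0.13 in WT, and Hlf was 0.11 in cKO and -0.74 in WT. Slamf1 was well above background on both LT-HSC arrays and on neither MPP array. Cd34 still had a signal of 3601 on cKO LT-HSC and 1169 on WT LT-HSC, against 6331 on cKO MPP and 7733 on WT MPP. Mapk14, the gene for p38 alpha, differed between cKO and WT by -0.58 ± 0.20 and 0.13 ± 0.20 in LT-HSC, and by 0.13 ± 0.20 and -0.03 ± 0.20 in MPP, at its 2 probes. Which part of the gene was deleted is not in the labels, so these probes do not check the genotype.

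Markers of other blood and marrow cells moved with the same arrays. The summed level of 10 B cell markers, in multiples of the 75th percentile, was 46.3 on cKO LT-HSC, 83.6 on WT LT-HSC, 20.2 on cKO MPP and 16.6 on WT MPP, and 10, 10, 6 and 7 of them were well above background on these arrays. Ebf1, Igll1 and Ms4a1 were well above background on neither MPP array. Cd22 was by far the brightest of the 10 on the MPP arrays (3173 in cKO, 2522 in WT) and weighed most in those sums. At least 2-fold higher on LT-HSC were 8 of 10 in cKO and 9 of 10 in WT, and 0 were lower. Of all genes, 7.91% were higher in cKO and 10.2% in WT, and 6.69% and 18.1% lower. Among B cell markers measured on both arrays, the median LT-HSC minus MPP difference was 2.67 in cKO and 4.62 in WT. The 10 T and NK cell markers summed to 42.4 on cKO LT-HSC, 40 on WT LT-HSC, 36.2 on cKO MPP and 36.3 on WT MPP, with 9 above background on either LT-HSC array, 5 on cKO MPP and 4 on WT MPP. The summed B cell level was thus high on the LT-HSC arrays, as Cdkn1b, Cdkn2d and Rb1 were. The summed T and NK level was only slightly higher there, though more of these markers were above background. Nkg7, the brightest of them, had 4908 on cKO LT-HSC, 4146 on WT LT-HSC, 5054 on cKO MPP and 5342 on WT MPP. Of the 9 T and NK markers measured, 6 were at least 2-fold higher on LT-HSC and 0 lower in each genotype, beside the same shares of all genes. Cd3d was 17.1-fold higher in cKO and at least 19.5-fold higher in WT. The part of both lists in the differences of Cdkn1b, Cdkn2d and Rb1 was not tested.

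WT LT-HSC, the high array for Cdkn2c and the Rbl1 variant 2 probe, also held the highest summed level of erythroid markers (37.4 on cKO LT-HSC, 75 on WT LT-HSC, 24.8 on cKO MPP and 22.3 on WT MPP, with 8 of 10 above background on each, Hbb-b1 on none). The same held for stromal and endothelial markers, with 11.7 on cKO LT-HSC, 44.5 on WT LT-HSC, 12.7 on cKO MPP and 13.0 on WT MPP, and with 11 of 12 above background on either LT-HSC array and 9 on either MPP array. On cKO LT-HSC, the high array for 2 Cdkn1a probes, the summed level of neutrophil markers was the highest, 255 against 209 on WT LT-HSC, 203 on cKO MPP and 165 on WT MPP, with 10 of 10 above background on each. S100a9 alone had a signal of 29193 on cKO LT-HSC, 25947 on WT LT-HSC, 14821 on cKO MPP and 9405 on WT MPP, whereas Mpo, a marker of early myeloid cells, had 4556 on cKO LT-HSC, 3534 on WT LT-HSC, 11364 on cKO MPP and 13245 on WT MPP. Elane was lowest on cKO LT-HSC, at 557. Macrophage markers summed to 35.1 on cKO LT-HSC, 36.6 on WT LT-HSC, 78.0 on cKO MPP and 43.2 on WT MPP, and megakaryocyte markers to 11.7 on cKO LT-HSC, 13.7 on WT LT-HSC, 6.66 on cKO MPP and 4.77 on WT MPP. The part of these markers in the differences between genotypes was not tested.

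Among the brightest probes of the 7 members measured on all 4 arrays, that of Cdkn1b had the widest range, 1.08 on the log2 scale. Dimmer probes ranged more widely, by 1.65 and 1.50 for the variant 2 and Ensembl probes of Cdkn1a and by 1.56 for the variant 1 probe of Rbl1. The genes whose centred profile over the 4 arrays lay nearest to that of Cdkn1b were Hip1, Metap1d and Adcyap1r1, at Euclidean distances of 0.04, 0.09 and 0.12. Within a distance of 0.5 lay 723 of 21519 genes, so with 4 arrays such a profile is shared by many genes.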

How the data were processed

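Total RNA of 4 samples was hybridised to Agilent array design 028005, with 1 array per group, all on 1 slide and from 1 scan. Spot intensity was deposited in linear units. The file headers give version 10.7.3.1 of Agilent Feature Extraction, and the submitters' processing notes give 9.5.3. Background was subtracted and spatial trends removed within each array, without a step between arrays, per the file headers. Each deposited flag (well above background, saturated, outlying) is a score that is 0 or 1 for a spot. The authors' deposited series table holds ratios, each probe's linear signal relative to its own level over the arrays. Its column medians were 97.5 for cKO LT-HSC, 91.9 for WT LT-HSC, 102 for cKO MPP and 107 for WT MPP, differences between arrays correlated with those of the scanner values at r = 1 across probes, and the rule of its scaling between arrays stays unknown. Probe coordinates are on mm9, per the file headers.

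Outlying spots (137 to 151 per array) were left out, and log2 of the processed signal minus the array's 75th percentile was averaged over the spots of a probe. Well above background were 70.5% of spots on cKO LT-HSC, 68.3% on WT LT-HSC, 65.0% on cKO MPP and 62.5% on WT MPP, and 0 were saturated. The number of arrays limits the precision. Gene names were updated through a RefSeq table of GRCm38.p6: 26762 probes matched by accession, 3819 by symbol, 639 through an older symbol, and 24461 retained the deposited name. A gene stands for its brightest probe among those well above background on at least 1 array. Where only 1 array of a pair measured a probe, the brighter value was set against the larger of the dim value and that array's lowest signal flagged well above background, and is given as "at least N-fold". Such a bound makes no allowance for the scanner software's error.

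Genes at 2-fold or more were counted per pair. The additive fit used limma 3.58.1 in R 4.3.3 with lmFit and eBayes on genes measured on at least 2 arrays, with Benjamini-Hochberg adjustment at 0.05, and was tested on simulated data. The members and the lists were chosen with earlier results of these data known. Named were all 10 members with every probe, at most 4 genes past 2-fold per list and comparison, and the 3 genes nearest to the widest-ranging member. Some genes that this rule names are not reported here, but are counted in their lists. The marker genes and Mapk14 named beside them check the samples. Alternatives were a percentile over probes detected on all 4 arrays, quantile normalization, normexp (offset 50) with quantile normalization, the mean of a gene's probes, no filter on dim probes, and the authors' series table.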

Additional observations from a re-analysis of the deposited data

Results flagged for a closer look

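At 2 probes of Cdkn1a and 1 of Rbl1 for the genotypes, and at 2 of Cdkn1a and 1 of Rbl1 for the populations, the same contrast ran in opposite directions in its 2 pairs of arrays, in each by more than the scanner error. At the brightest Cdkn1a probe the margin was slight, with 0.23 and -0.21 against errors of 0.21. With 1 array per group, these differences between pairs were not tested. Subtracting the cKO minus WT difference of MPP from that of LT-HSC gave 0.43 for the brightest Cdkn1a probe (0.23 for LT-HSC, -0.21 for MPP), 1.94 for the Cdkn1a probe named for the Ensembl transcript (1.40 for LT-HSC, -0.54 for MPP) and 0.85 for the Rbl1 variant 1 probe (0.53 for LT-HSC, -0.32 for MPP). Subtracting the LT-HSC minus MPP difference of WT from that of cKO gave 1.94 for the same Ensembl probe of Cdkn1a, which is the same sum of 4 values read the other way. It gave 1.69 for the Cdkn1a variant 2 probe (1.28 in cKO, -0.41 in WT) and -0.74 for the Rbl1 variant 2 probe (-0.40 in cKO, 0.33 in WT).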

How the results depend on the processing

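Over the 6 alternatives, 182 values of member differences stayed close to the value given, 9 moved and 1 reversed: Rbl1, LT-HSC minus MPP in WT, was -0.61 with the mean of its probes. The count of members 2-fold higher on LT-HSC became 1 in WT with normexp, with quantile normalization and with the percentile over probes detected on all 4 arrays. In cKO it became 0 with the mean of probes, and 2 with normexp, with quantile normalization and with no filter. The count of members 2-fold higher in cKO LT-HSC than in WT LT-HSC became 0 with normexp and with quantile normalization, and the count lower in cKO MPP became 1 with no filter. The members' median LT-HSC minus MPP difference was 0.18 in cKO with normexp and 0.20 in WT with no filter. Cdkn2d in WT was 1.31 with normexp and 1.32 with quantile normalization.

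List medians, LT-HSC minus MPP in WT, were -0.84 with normexp and -0.90 with quantile normalization for E2F and DP factors, -0.74 and -0.77 for E2F targets, -0.80 and -0.75 for G1 cyclins and kinases, and -0.43 and -0.47 for the MuvB group. In cKO they were -0.27 and -0.24 for E2F targets, -0.74 with normexp for G1 cyclins and kinases, and -0.32 with normexp and -0.81 with the mean of probes for the MuvB group. The regulators had -0.76 in WT with the mean of probes, and 0.22 for cKO minus WT in LT-HSC. The cause of these shifts was not tested.

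In the additive fit of LT-HSC minus MPP, limma called 101 genes higher with the percentile over probes on all 4 arrays, 59 with normexp and 151 higher and 5 lower with the mean of probes, and 0 members passed under any of the 6 alternatives. The adjusted p over all settings was 0.195 to 0.415 for Cdkn1b, 0.184 to 0.41 for Cdkn2d and 0.215 to 0.452 for Rb1. That percentile moved the median of all genes for LT-HSC minus MPP to 0.02 in cKO, against -0.09, and to -0.05 in WT, against -0.20. The share of higher genes among those past 2-fold was 54.2% in cKO and 36.0% in WT for LT-HSC against MPP, and became 64.8% in cKO and 46.2% in WT with that percentile, 68.7% in cKO and 50.5% in WT with normexp, and 46.0% in WT with quantile normalization. For cKO against WT it was 56.4% in LT-HSC and 48.0% in MPP, and 45.6% in LT-HSC and 65.5% in MPP with normexp. The numbers of genes higher and lower were 2947 and 2278 for cKO against WT in LT-HSC, 609 and 661 for cKO against WT in MPP, 2137 and 1808 for LT-HSC against MPP in cKO, and 2720 and 4836 in WT. In the same order they were 911 and 1089, 97 and 51, 955 and 435, and 1757 and 1723 with normexp, and 4407 and 3072, 1689 and 2038, 3572 and 2790, and 3652 and 6354 with no filter. No paired analysis was possible because each group had 1 array, and for the same reason no array could be left out of a pair. Signals under the lowest value well above background, 12.5 to 15.4, limit what can be said of Cdkn1c, Cdkn2a and Cdkn2b.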
